A study of Mus musculus with 6 samples.

Results

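Polyamines are small, positively charged molecules that bind nucleic acids, and every dividing cell makes them. The 10 genes described here encode the core of their metabolism in the mouse: the synthesis enzymes Odc1, Amd1, Srm and Sms, the regulators of Odc1 protein Oaz1, Oaz2 and Azin1, and the catabolic enzymes Sat1, Smox and Paox. They were chosen by name from the pathway, with the differences between knockout and wild type in these same libraries already known, so for them that contrast is described and not used as a test. All 10 were among the 23358 genes of the deposited table, and 9 had counts high enough to be fitted.

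The tissue was calvaria (skull vault bone) of mice aged 2 to 3 days. It was digested briefly with collagenase and trypsin and then frozen, and total RNA was sequenced. There were 3 libraries from mice with a conditional knockout of Ezh2 (cKO) and 3 from wild type mice (WT), called WT 14, WT 27, WT 29, cKO 8, cKO 10 and cKO 37 after the numbers in their titles, and values per library are given in that order. Ezh2 encodes the histone methyltransferase of Polycomb repressive complex PRC2. Osx, the former symbol of the osteoblast lineage factor Sp7, stands in the titles of both groups. Which construct deletes Ezh2, which exons it removes and whether WT mice carried a recombinase are not stated. Nothing says that the libraries came from different animals, so the p-values measure only how these 6 libraries vary, which may be technical.

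The gene counts summed to between 60449016 and 95439578 per library. Ezh2 itself had 20.7, 21.7 and 20.4 CPM (counts-per-million, after TMM scaling) in the WT libraries and 19.2, 20.6 and 19.8 in the cKO libraries, so the groups overlapped. Log2 fold changes compare cKO with WT and carry their standard error, and that of Ezh2 was -0.07 ± 0.07 (edgeR adjusted p = 0.507). Counts over the whole gene do not check a deletion of part of it. All 12 listed osteoblast and bone matrix markers were detected, and 1 of them was lower in cKO (Sp7, -0.37 ± 0.09, edgeR adjusted p = 0.0211). Their summed level overlapped between the groups (146875 to 196189 CPM in WT, 113272 to 151402 in cKO), but it is mostly Col1a1 and Col1a2. At 3 of the 12 the groups did not overlap, with Sp7 and Col1a1 lower and Ibsp higher in cKO. The fit across 16089 genes called 12.4% of them at an adjusted p under 0.05, with 6.45% lower and 5.96% higher in cKO, and 34.6% of them had no overlap between the 3 cKO and the 3 WT libraries.

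The pathway starts with ornithine decarboxylase (Odc1), which makes putrescine. Spermidine synthase (Srm) and spermine synthase (Sms) then each add an aminopropyl group, which comes from the S-adenosylmethionine that Amd1 has decarboxylated. Antizymes (Oaz1, Oaz2) bind Odc1 protein and bring it to the proteasome, and the antizyme inhibitor Azin1, a relative of Odc1 without its activity, takes antizyme away from it. In the breakdown of polyamines Sat1 acetylates spermidine and spermine, Paox oxidises the acetylated forms and Smox oxidises spermine directly.

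Antizyme messages are read with a shift of reading frame at a stop codon, a step that polyamines promote. The site is shown because the RNA counts of Oaz1 and Oaz2 given further on lie upstream of this step and do not measure it. Each 30-base stretch is read 5′ to 3′ from GENCODE M21 transcripts (GRCm38), of a coding transcript for Oaz1 and of transcripts annotated as processed for Oaz2, with the last codon before the stop, the stop codon and the base after it in capitals.
Oaz1: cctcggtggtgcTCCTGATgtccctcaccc
Oaz2: cctctgtggtgcTCCTGATgcccctcaccc
The capital letters and the tgc just before them are the pattern the sites were searched with, so they are the same in both genes by construction.

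Of the 9 fitted members, 2 passed the threshold, both lower in cKO and both enzymes of synthesis (Odc1 and Srm), beside 6.45% of all genes called lower. None was called higher by edgeR, DESeq2 or limma voom, beside 5.96% of all genes called higher by edgeR. At an unadjusted p under 0.05 in edgeR, 1 member was higher (Sat1) and 3 were lower (Odc1, Srm and Azin1), beside 4675 of the 16089 genes in either direction. At 4 of 9 members (Odc1, Srm, Sms and Sat1) the groups did not overlap, beside 34.6% of all fitted genes. The median log2 fold change was 0.01 over the 9 members and 0.01 over all fitted genes. By role, all 3 fitted synthesis enzymes had negative log2 fold changes, as did 1 of the 3 regulators of Odc1 and 0 of the 3 catabolic enzymes.

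Odc1 (chromosome 12, 17544873 to 17551502, plus strand, 12 exons), the entry enzyme, had 171, 152 and 172 CPM in the WT libraries and 112, 114 and 99.1 CPM in the cKO libraries. Every WT library was above every cKO library, and cKO 37 was the lowest of the 6. The means were 165 ± 11.3 in WT and 109 ± 8.27 CPM in cKO (SD, n = 3 per group), a log2 fold change of -0.61 ± 0.07 (95% confidence interval -0.77 to -0.44), or 1.52-fold more in WT. By size, this ranked 93 among the 1038 genes called lower. Positions here and below are those of the deposited table, build mm10, with strand and exon number from the longest GENCODE M21 transcript.

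Srm (chromosome 4, 148591513 to 148594619, plus strand, 7 exons), which makes spermidine, had 75, 76.9 and 81.7 CPM in the WT libraries and 46.8, 50.1 and 43.5 CPM in the cKO libraries. The lowest WT library lay well above the highest cKO library, and cKO 37 was again the lowest. The means were 77.9 ± 3.43 and 46.8 ± 3.3 CPM, and the log2 fold change was -0.73 ± 0.07 (95% confidence interval -0.88 to -0.59), or 1.66-fold more in WT, the largest difference among the 9 fitted members and rank 56 among the genes called lower. Odc1 and Srm passed in each of 14 alternative fits, with log2 fold changes between -0.67 and -0.55 and between -0.79 and -0.66. These fits reuse the contrast the members were chosen on, so they describe the effect of the processing and are no further support.

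Sms (chromosome X, 157443954 to 157492046, minus strand, 11 exons), which makes spermine, stood closer between the groups. Its CPM were 15.2, 14.6 and 15.1 in the WT libraries and 12.45, 13.35 and 14.25 in the cKO libraries. The groups did not overlap, but cKO 37 lay just under WT 27, and the log2 fold change of -0.16 ± 0.08 (95% confidence interval -0.34 to 0.01) did not pass. When GC content and length of the genes were modelled as an offset it was -0.26 and passed, and it passed in none of the other 13 alternatives.

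Amd1 (chromosome 10, 40287458 to 40302188, minus strand) could not be measured. Its counts were 0, 4 and 6 in the WT libraries and 2, 2 and 4 in the cKO libraries. The table also lists Amd2 over 99.9% of the same stretch, with a count of 0 in every library, and 87.6% of the 50-base windows of the Amd1 transcript occur in transcripts of other annotated genes. The sources used here do not say how reads that fit both entries were counted, so the level of Amd1 is uncertain and no fold change is given.

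**Figure D1:**
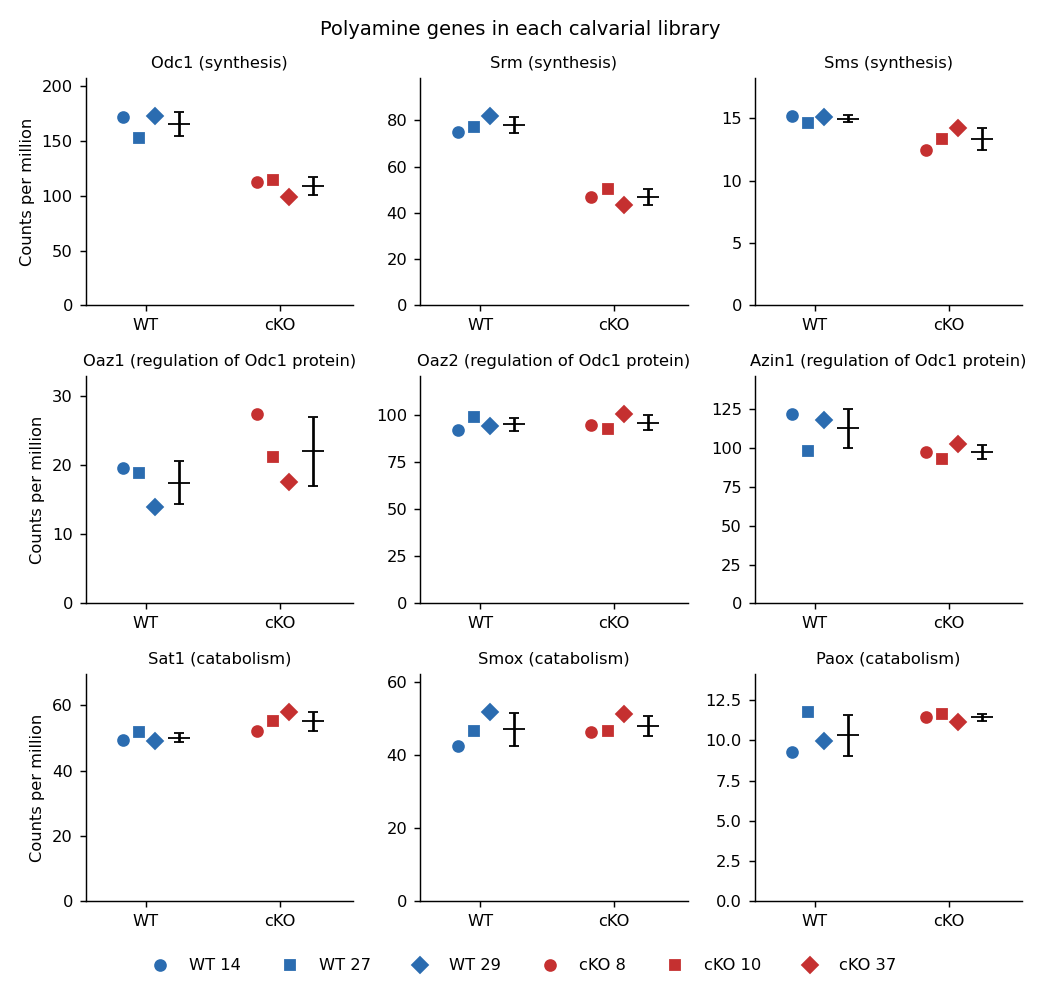
CPM of the 9 fitted members in each library (blue WT, red cKO, 1 symbol per library), with the group mean and SD (black mark and bar, n = 3 per group); each vertical axis starts at 0. The WT and cKO points of Odc1 and Srm are far apart, those of Sms and Sat1 lie side by side without overlap, and those of the other 5 genes overlap.

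The regulators of Odc1 protein did not pass. Oaz2 (chromosome 9, 65676548 to 65690300, plus strand) had 92, 98.9 and 94.3 CPM in the WT libraries and 94.7, 92.7 and 100.5 CPM in the cKO libraries. The groups overlapped nearly whole, and the log2 fold change was 0.01 ± 0.06, with a negative sign without WT 14 or cKO 37. Its 95% confidence interval of -0.12 to 0.14 was the narrowest among the 9 fitted members.

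Oaz1 (chromosome 10, 80826656 to 80829290, plus strand) varied most between libraries. It had 19.5, 18.8 and 13.9 CPM in the WT libraries and 27.3, 21.1 and 17.5 CPM in the cKO libraries. The cKO libraries spread from the highest value of all to one below 2 of the WT libraries, with coefficients of variation of 17.6% in WT and 22.6% in cKO. The log2 fold change was 0.33 ± 0.20 (95% confidence interval -0.15 to 0.82) and did not pass. It was 0.15 without cKO 8 and 0.19 without WT 29. The table lists a pseudogene, Oaz1-ps, over 95.7% of the Oaz1 stretch with a count of 0 in every library, and 52.2% of the gene's 50-base windows occur in Oaz1-ps transcripts. The level of Oaz1 is therefore uncertain, and the part of this overlap in its spread was not tested.

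Azin1 (chromosome 15, 38487430 to 38519266, minus strand, 12 exons) had 122, 98 and 118 CPM in the WT libraries and 97.2, 92.9 and 102 CPM in the cKO libraries. WT 27 lay among the cKO libraries, while the other WT libraries lay above all of them. The log2 fold change was -0.21 ± 0.08 (95% confidence interval -0.39 to -0.03, not adjusted for the number of genes) and did not pass. Azin1 passed, lower, without WT 27 (-0.30) and with that offset for GC and length (-0.36), and it passed in none of the other 12 alternatives.

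The 3 catabolic enzymes did not pass either. Sat1 (chromosome X, 155213139 to 155216409, minus strand), whose product acetylates polyamines for export or oxidation, had 49.4, 51.8 and 49.2 CPM in the WT libraries and 52.1, 55.2 and 57.9 CPM in the cKO libraries. All cKO libraries were above all WT libraries, by a narrow margin between WT 27 and cKO 8. The log2 fold change was 0.14 ± 0.06 (unadjusted 95% confidence interval 0.0002 to 0.27), and under the same offset it was 0.06.

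Smox (chromosome 2, 131491862 to 131525183, plus strand, 7 exons) had 42.7, 46.75 and 51.8 CPM in the WT libraries and 46.47, 46.55 and 51.2 CPM in the cKO libraries. The cKO libraries all lay inside the WT range, and the log2 fold change was 0.03 ± 0.08 (95% confidence interval -0.14 to 0.20), with a negative sign without WT 14 or cKO 37. Entries for Mir3098 and Mir3110 also span 100% of the Smox stretch, with counts of at most 6 and 2 in any library. Paox (chromosome 7, 140125685 to 140134334, plus strand) had 9.27, 11.7 and 9.94 CPM in the WT libraries and 11.45, 11.64 and 11.16 CPM in the cKO libraries. WT 27 was the highest of the 6 and the cKO libraries lay close together below it, with a log2 fold change of 0.15 ± 0.10 (95% confidence interval -0.08 to 0.37).

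Compared per length, in the deposited RPKM (values divided by gene length and by library size), Odc1 was the highest of the 9 fitted members in WT (48.2 ± 1.33), followed by Srm (43.6 ± 2.41), Oaz2 (38.4 ± 3.08), Sat1 (33.5 ± 2.43), Azin1 (16.6 ± 1.22), Smox (15.5 ± 1.62), Oaz1 (12.1 ± 2.32), Paox (4.43 ± 0.746) and Sms (3.29 ± 0.0761). The places of Amd1, left out here, and of Oaz1 are not known, since a second entry covers most of each gene and shares much of its sequence. Neighbours whose WT libraries overlapped were Srm and Oaz2, Oaz2 and Sat1, Azin1 and Smox, and Smox and Oaz1. In cKO the order began with Oaz2 (38.9 ± 2.67) and Sat1 (37 ± 3.45), ahead of Odc1 (31.9 ± 2.46) and Srm (26.4 ± 2.32). The cKO libraries of Oaz2 overlapped those of Sat1, and those of Sat1 overlapped those of Odc1, while every cKO library had more Odc1 than the highest had of Srm. Smox (15.9 ± 1.38), Oaz1 (15.2 ± 2.78) and Azin1 (14.5 ± 0.971) overlapped in cKO, and Paox (4.91 ± 0.243) lay above Sms (2.96 ± 0.316). Over all libraries Odc1, Oaz2, Sat1 and Srm ranked at the 94.7, 94.5, 93.8 and 93.7 percentiles of fitted genes by RPKM, and Sms at 44. In bulk tissue fewer cells that express a gene and less RNA per cell cannot be told apart.

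These levels are uncertain where sequence is shared with other gene models. Of the 50-base windows in the longest coding transcript, the highest shares were those of Amd1 (87.6%) and Oaz1 (52.2%), given above. For Odc1, 42.2% occur in transcripts of 16 other annotated genes, and the shares were 28.9% for Paox, 28.7% for Sms and 12% for Oaz2. The Paox transcript searched has 4655 bases, while the deposited length of the gene is 1737. Of its 1329 shared windows, 1259 occur in Gm19680, and whether these lie in the counted part was not checked. The shares were 7.3% for Sat1, 6.4% for Azin1, 2.4% for Srm and 0% for Smox, with Srm and Smox the least shared. The window length is a choice, since the sources used here name neither the read length nor how shared reads were counted.

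Ratios of 2 members within a library do not depend on how libraries are scaled. Sat1 to Odc1, a breakdown enzyme over the entry enzyme, was 0.658, 0.777 and 0.652 in the WT libraries and 1.06, 1.1 and 1.33 in the cKO libraries. Odc1 RPKM exceeded Sat1 RPKM in each WT library and was below it in each cKO library.

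The Srm to Sms ratio was 12.6, 13.4 and 13.8 in the WT libraries and 9.56, 9.55 and 7.76 in the cKO libraries. The groups did not overlap, and the mean ratio in cKO was 0.677 times that in WT. Odc1 to Azin1, the enzyme over the protein that protects it, went from 2.91 ± 0.147 in WT to 2.21 ± 0.267 in cKO, without overlap. Odc1 to Oaz1 went from 4.12 ± 0.977 to 2.14 ± 0.354, also without overlap, subject to the uncertain level of Oaz1. Oaz1 to Oaz2 (0.314 ± 0.0566 and 0.394 ± 0.0982) and Smox to Paox (3.53 ± 0.472 and 3.24 ± 0.248) overlapped between the groups. These ratios come from the contrast the members were chosen on and carry no test.

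**Figure D2:**
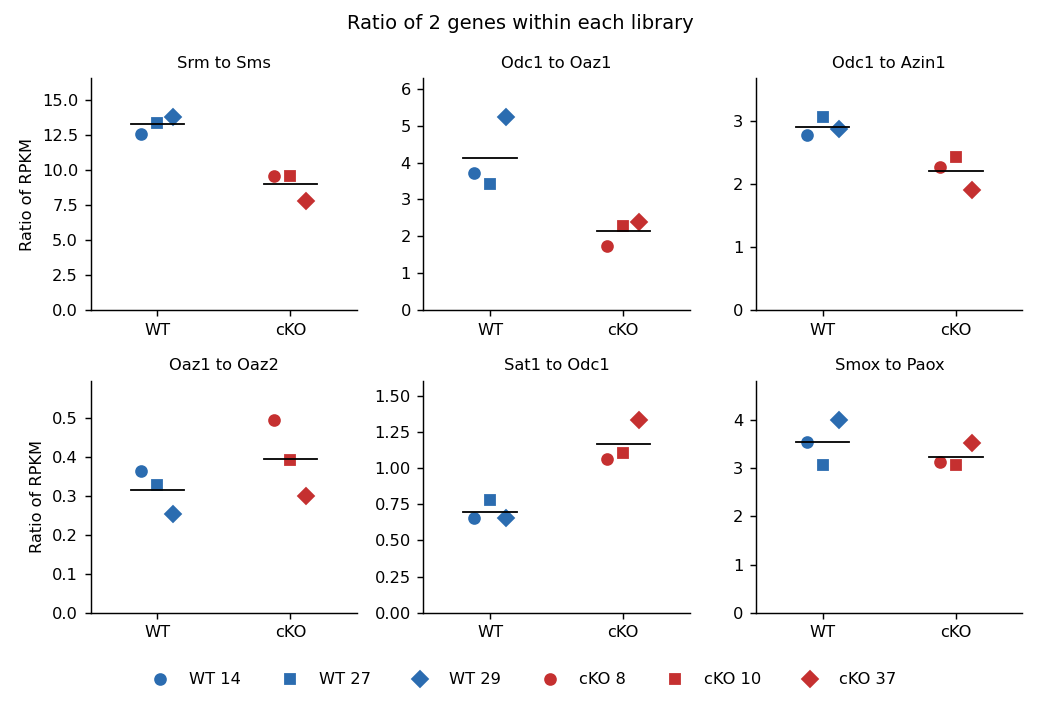
Ratio of the deposited RPKM of 2 members within each library (blue WT, red cKO, 1 symbol per library; line, group mean of 3); each axis starts at 0. The Srm to Sms, Odc1 to Azin1 and Odc1 to Oaz1 ratios are lower in every cKO library than in any WT library, Sat1 to Odc1 is higher in every cKO library, and the other 2 ratios overlap.

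**Figure D3:**
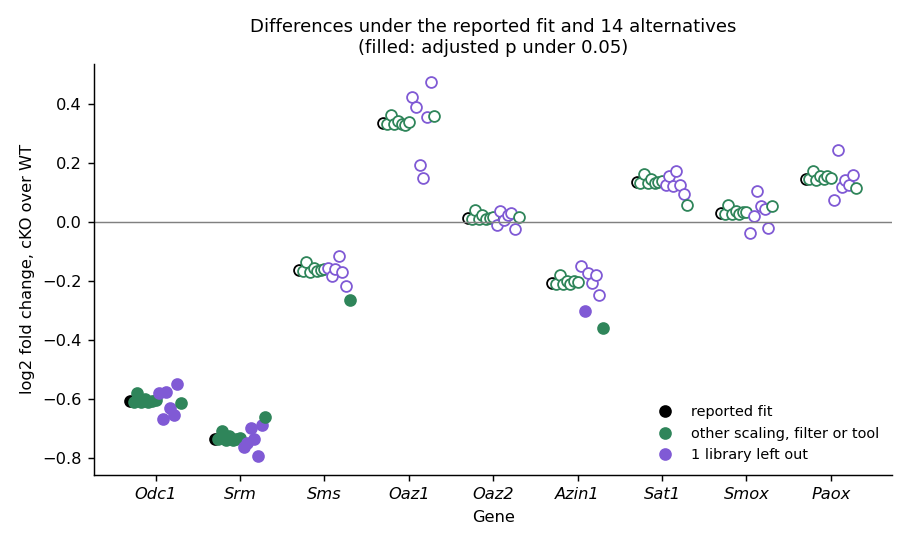
log2 fold change, cKO over WT, of each fitted member in the reported fit (black), with another scaling, filter, tool or offset (green) and with 1 library left out (purple); filled symbols have an adjusted p under 0.05. Odc1 and Srm are filled throughout, Sms is filled once and Azin1 at 2 points, and Oaz1 has the widest spread, from 0.15 to 0.47.

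Genes around the core pathway were taken from a list of 48 that excludes the members, of which 38 had counts high enough to fit. This list too was chosen with earlier results of these data known, so its calls are a description and not an independent test. Of these, 2 rose in cKO, 5 fell and 31 did not pass, beside 12.4% of all genes called, and the median log2 fold change was -0.08 against 0.01 over all fitted genes. All adjusted p-values are from the edgeR quasi-likelihood fit over 16089 genes. Without WT 29 only 3 of the list passed and without cKO 8 only 2, while 8 fell under the offset for GC and length.

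Use of spermidine beyond the pathway includes the hypusine residue of the translation factor Eif5a, which Dhps and Dohh build from it. Eif5a had 326, 323 and 345 CPM in the WT libraries and 256, 266 and 261 in the cKO libraries. Every cKO library was below every WT library, and Eif5a fell, with a log2 fold change of -0.34 ± 0.06 (adjusted p = 0.00779, and 0.0511 without cKO 8). Dhps, which makes the deoxyhypusine intermediate, was at 14.5 ± 1.16 and 14 ± 0.894 CPM (-0.05 ± 0.09, 95% confidence interval -0.24 to 0.15). Dohh, which completes the residue and is named after its values were seen, was at 22.7 ± 0.833 and 20 ± 1.42 CPM without overlap, and did not pass (-0.18 ± 0.07, adjusted p = 0.123). The other gene of this group did not pass.

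In the supply of the aminopropyl donor, 2 of 7 fitted genes fell, beside 6.45% of all genes called lower. Mat2a, which makes S-adenosylmethionine, had 121, 104 and 119 CPM in the WT libraries and 93.4, 92.9 and 92.2 in the cKO libraries, with no overlap and cKO libraries nearly equal (-0.31 ± 0.07, adjusted p = 0.0151). Enoph1, of the salvage route that returns the spent donor to methionine, fell from 18.6 ± 1.65 to 14 ± 0.44 CPM (-0.40 ± 0.08, adjusted p = 0.0134). Mat2a was lost without WT 14, WT 29 or cKO 8 and Enoph1 without cKO 8 (highest adjusted p = 0.0705 and 0.0633). The other 5 did not pass. The table lists 4930414L22Rik over 13% of the Mat2a stretch, with 364 to 564 counts of its own, and how reads in the overlap were counted is not known.

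Among 13 fitted transport genes, 2 fell and 1 rose, beside 6.45% of all genes called lower and 5.96% called higher. The arginine transporters moved in opposite directions: Slc7a1 fell from 69.3 ± 7.19 to 50.9 ± 4.82 CPM (-0.45 ± 0.09, adjusted p = 0.0129), and Slc7a2 rose from 64.8 ± 2.91 to 86 ± 6.61 CPM (0.41 ± 0.07, adjusted p = 0.00649). In both genes no cKO library overlapped a WT library. Slc3a2, the heavy chain of amino acid exchangers, fell from 105.8 ± 3.4 to 89.7 ± 5.65 CPM (-0.24 ± 0.06, adjusted p = 0.0338). Slc7a2 passed in all 14 alternatives. Slc7a1 was lost without WT 29 (adjusted p = 0.0516), and Slc3a2 without any library but cKO 37 (highest adjusted p = 0.145).

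Of 5 fitted genes listed under the supply of ornithine and agmatine 1 passed, beside 12.4% of all genes. It was Azin2, given in the table by its older name Adc. Azin2 is a further relative of Odc1 that acts as an antizyme inhibitor and not as a supply enzyme, and none of the other 4 genes passed with edgeR, DESeq2 or limma voom (Oat, named after its values were seen, was lower at an unadjusted p under 0.05 in edgeR). Azin2 had 21.1, 19 and 17.4 CPM in the WT libraries and 24.1, 23.3 and 27.2 in the cKO libraries, and it rose without overlap (0.38 ± 0.09, adjusted p = 0.0211). Azin2 passed in 10 of the 14 alternatives, and leaving out WT 27, WT 29, cKO 8 or cKO 37 ended the call (highest adjusted p = 0.0893). Arginase 1 (Arg1), which makes ornithine, was scarce at 0.279 ± 0.0299 and 0.17 ± 0.0108 CPM (-0.71 ± 0.39, adjusted p = 0.262). Of the 5 fitted genes of terminal oxidation and acetylation, 0 passed with edgeR, DESeq2 or limma voom, and 1 was lower at an unadjusted p under 0.05 in edgeR. The same tools called 0 of the 2 fitted genes for degradation of Odc1 protein, with 0 at an unadjusted p under 0.05.

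**Figure D4:**
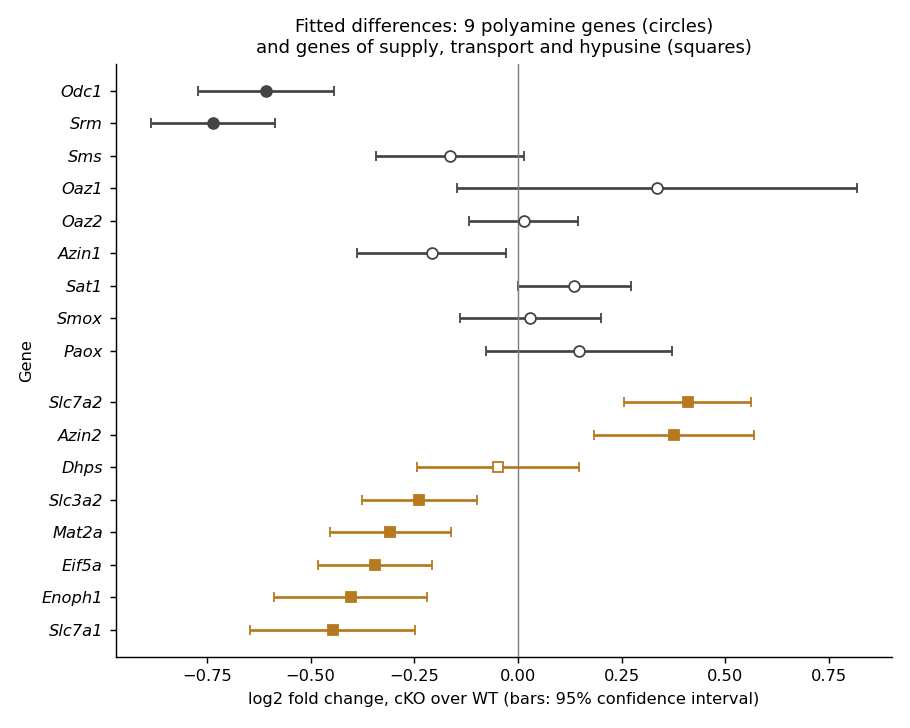
log2 fold change, cKO over WT, with 95% confidence intervals from the edgeR fit for the 9 fitted members (circles) and for Dhps and the 7 genes of the wider list that passed (squares); filled symbols have an adjusted p under 0.05. Odc1 and Srm lie furthest left, at -0.61 and -0.73, and Slc7a2 and Azin2 are the filled symbols to the right of 0.

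Members of the pathway are known targets of transcription factors that respond to growth signals and stress. Myc, which activates Odc1 and Srm in many cells, had 40, 31.6 and 39 CPM in the WT libraries and 33, 30.5 and 26.4 in the cKO libraries. WT 27 lay between cKO libraries, and the log2 fold change of -0.30 ± 0.11 did not pass (edgeR adjusted p = 0.0947). Myc passed in 2 of the 14 alternatives, with DESeq2 (adjusted p = 0.0426) and without WT 27 (edgeR adjusted p = 0.0295). The highest edgeR adjusted p among the alternatives was 0.245, without WT 29. Nfe2l2, a regulator of oxidative stress genes, rose from 25.6 ± 2.04 to 38.2 ± 4.22 CPM (0.58 ± 0.09, adjusted p = 0.00417). An entry for Mir684-1 spans 100% of the Nfe2l2 stretch, with a count of at most 6 in any library. Of the 6 regulators listed as background, 1 rose and 5 did not pass, beside 12.4% of all genes called. The log2 fold changes of the others were -0.15 ± 0.14 for Mycn, 0.08 ± 0.07 for Max, 0.01 ± 0.12 for Mxd1 and 0.11 ± 0.06 for Mxd4. Whether these regulators had a part in the differences of Odc1 and Srm was not tested.

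Genes of the early response, which handling of tissue can induce, also differed between the groups. Of 15 such genes, 14 fell and 1 did not pass, beside 6.45% of all genes called lower, with a median log2 fold change of -0.75. Their summed level was 4633, 4217 and 4770 CPM in the WT libraries and 2939, 2744 and 2313 in the cKO libraries. The groups did not overlap and cKO 37 was the lowest, as it was for Odc1 and Srm. The part of this response in the differences of Odc1 and Srm was not tested.

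Markers of other cells were compared in the same way. All 8 osteoclast genes had negative log2 fold changes, with a median of -0.55. Of these, 1 passed with edgeR, 4 with DESeq2 and 1 with limma voom, and 5 were lower at an unadjusted p under 0.05 in edgeR. Over all 16089 genes, edgeR called 1038 lower, DESeq2 1389 and limma voom 995. In edgeR 4675 genes had an unadjusted p under 0.05 in either direction. Their summed levels overlapped, at 2989 to 4274 CPM in WT and 2419 to 3056 in cKO. Of the 9 macrophage genes, 1 fell with edgeR (Csf1r), 2 with DESeq2 and 1 with limma voom (2 lower at an unadjusted p under 0.05 in edgeR). They summed to 442 to 545 CPM in WT and 372 to 438 in cKO, without overlap. Csf1r was the largest part of this sum, with means of 225 CPM in WT and 167 in cKO. The median log2 fold change of the 9 genes was -0.01, with 6 negative. Summed cartilage markers ranged from 2195 to 8197 CPM in WT and from 773 to 6379 in cKO, with cKO 37 at the bottom, and 0 of 6 passed with edgeR, DESeq2 or limma voom, or at an unadjusted p under 0.05. Erythroid genes summed to 28 to 48 CPM in WT and 35.5 to 58.3 in cKO, and 0 of 7 passed with edgeR (1 with DESeq2, 0 with limma voom, and 2 at an unadjusted p under 0.05, 1 in each direction). Only 9 of the 13 listed erythroid genes had an entry. Most of the erythroid sum was Hbb-bs, with means of 33.5 CPM in WT and 40.5 in cKO, while the globin Hba-a2 had 0.218 and 0.0933. How reads shared between globin genes were counted is not known, so the erythroid level is uncertain. Summed endothelial genes were 547 to 610 and 559 to 683 CPM (1 of 7 fell), and neural and glial genes 26.7 to 43.8 and 23.2 to 35.2 CPM (1 of 7 fell). Neutrophil, B lineage, muscle and epidermal genes summed to at most 6.27 CPM in any library, and 0 passed with edgeR, DESeq2 or limma voom (1 neutrophil gene was lower at an unadjusted p under 0.05 in edgeR). Their part in the differences of the polyamine genes was not tested.

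Promoter sequence was read from RefSeq (GRCm38.p6) as 300 bases, from 250 before to 50 after each start, and was found for 8 of the 10 members. Srm and Azin1 were not matched. The promoter of Odc1 is shown beside that of Sat1, since Odc1 was lower in cKO and Sat1 had a positive difference, with the GC box (GGGCGG, on either strand) in capitals. The Odc1 window is chr12:17544623-17544922 on the plus strand and the Sat1 window chrX:155216400-155216699 on the minus strand, both printed 5′ to 3′ in the direction of the gene.
Odc1: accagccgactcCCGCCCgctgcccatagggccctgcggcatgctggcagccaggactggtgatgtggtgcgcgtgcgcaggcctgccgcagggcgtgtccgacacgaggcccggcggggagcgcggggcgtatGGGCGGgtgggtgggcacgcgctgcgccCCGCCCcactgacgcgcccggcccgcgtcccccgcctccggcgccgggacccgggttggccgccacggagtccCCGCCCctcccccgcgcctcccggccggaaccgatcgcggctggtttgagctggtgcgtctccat
Sat1: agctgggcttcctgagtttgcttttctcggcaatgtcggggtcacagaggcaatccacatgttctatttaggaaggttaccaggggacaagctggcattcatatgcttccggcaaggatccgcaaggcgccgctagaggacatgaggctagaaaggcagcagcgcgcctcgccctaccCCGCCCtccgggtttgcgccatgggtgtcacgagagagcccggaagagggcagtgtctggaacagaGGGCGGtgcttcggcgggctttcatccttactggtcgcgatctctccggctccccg
The Odc1 window holds 4 GC boxes and 78% G and C, and the Sat1 window 2 and 60.3%. A GC box occurs in 35.7% of all 32851 promoter windows of this length. Smox and Oaz2, which did not pass, hold 6 and 4 of them, as many as Odc1 or more. The E-box CACGTG, which Myc binds, occurs in 7.2% of all windows and in 1 of the 2 Sms windows. It occurs in none of the windows of the other matched members, and Srm and Azin1 could not be looked at. Sequence outside these 300 bases was not searched, so absence from a window does not show that a gene lacks the site. A match is a description of these letters only.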

How the data were processed

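Per the submitters' processing notes, bcl2fastq, TopHat2 2.0.6 and HTSeq were used with build mm10. The sources used here name no annotation, read length, strand or settings. The deposited values are read counts per gene, all even numbers (0 odd), and RPKM values, which the authors scaled by length and library total. Counts were tested as deposited, and RPKM served for levels and ratios.

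The counts were fitted with edgeR 4.0.16 under R 4.3.3: filterByExpr with a minimum count of 10 left 16089 of 23358 genes, TMM factors were 0.952 to 1.07, and the robust quasi-likelihood test of 3 cKO against 3 WT libraries was adjusted by Benjamini-Hochberg over all genes (threshold 0.05). The steps were tested on simulated data. Members, lists and tests were chosen with earlier results of these data known. The named genes are all members, every passing gene of the wider list, and Eif5a, Mat2a, Dhps and Arg1, with Myc, Nfe2l2 and Ezh2 as background. Dohh, Oat and the named marker genes were picked after their values were seen. The Odc1 to Amd1 ratio was not computed. Alternatives used RLE or upper-quartile factors, other filters, DESeq2 1.42.0, limma 3.58.1 (voom), halved counts and each library left out; the GC and length offset (98.5% of genes with a value) and the left-out libraries for ratios were added after seeing the data.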

Additional observations from a re-analysis of the deposited data

How the results depend on the processing

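No paired analysis was possible because the groups share no replicate numbers. With the GC and length offset 4 members passed, all lower, and 8 genes of the wider list fell. Leaving out 1 library gave 2 to 3 members called (3 without WT 27). For the wider list it gave 2 to 7 genes called, with 1 to 5 lower (3 without WT 14, 2 without WT 29, 1 without cKO 8) and 1 to 2 higher (1 without WT 27, WT 29 or cKO 8). Over all genes it gave 586 to 1985 calls (295 to 1053 lower, 291 to 932 higher), against 1997 with all 6 libraries, with 1127 calls without WT 14, 1169 without WT 27, 783 without WT 29 and 586 without cKO 8, and 592 higher without cKO 10. At an adjusted p under 0.1 the wider list had 11 calls (8 lower), and all genes 3277 (1684 lower, 1593 higher). Of all calls 48% were higher, against 60.9% under upper-quartile factors and 33.4% under that offset. Without 1 library the log2 fold change ranged from -0.025 to 0.038 for Oaz2 (below 0 without WT 14 or cKO 37), -0.037 to 0.10 for Smox (below 0 without WT 14 or cKO 37) and -0.11 to 0.015 for Dhps (above 0 without WT 14). The ratio of cKO to WT moved by less than the spread between libraries for each of the 6 within-library ratios. Arg1 had no value with a mean CPM filter or halved counts and no adjusted p with DESeq2. With 1 library left out there are fewer samples, and the cause of the other changes was not tested. Low counts limit Amd1, Arg1 and the 10 genes of the wider list left out of the fit.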
